A study of Mus musculus with 12 samples.

Results

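The effect of the antioxidant N-acetyl-L-cysteine (NAC) was measured in LSK cells of Mll5-/- mice. LSK cells are bone marrow cells sorted as Lin-Sca1+Kit+, a gate that holds blood stem cells and early multipotent progenitors. The 3 arrays of Mll5-/- mice given NAC were set against the 3 arrays of Mll5-/- mice given none (mock), 6 of the 12 arrays of the study, and 22180 genes were measured on each. The other 6 arrays come from wild-type (Mll5+/+) mice, again 3 with NAC and 3 mock, and serve here for the estimate of the spread and for a side-by-side reading of the NAC effect. All mice were C57BL/6 and carried no transgene or other allele that the labels name. NAC was given in the drinking water at 1 g per liter from the mating of Mll5+/- parents onward and for the whole life of the offspring, so exposure before birth and in the adult cannot be told apart. The cells were not cultured. The labels give neither the age of the mice nor whether each array came from its own mouse or from a pool, so each p-value reflects nothing more than array-to-array spread, which may be technical. Values are RMA signals on a log2 scale, a difference of 1 being a doubling, and values of a group are listed in the order of its arrays 1 to 3.

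Mll5, now named Kmt2e, encodes a SET-domain protein of the MLL family with a known part in the upkeep of blood stem cells. NAC supplies cysteine for glutathione synthesis and so lowers reactive oxygen species. Stem cells are known to lose quiescence and to differentiate when such species accumulate, and the comparison asks what long-term NAC leaves on the transcripts of LSK cells that lack Mll5.

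The arrays were alike in level, with medians between 2.89 and 2.96. Each pair of arrays correlated at 0.976 to 0.988 across genes. NAC array 1 of Mll5-/- had the lowest weight of the 12 in limma arrayWeights, at 0.541, and wild-type mock array 1 the next at 0.71. The call and the list splits that turned without NAC array 1 are also given below without it. The LSK label was borne out by its markers: all 10 measured of 12 lay above the median gene level of 3.17, while 8 of the 9 measured lineage markers that the sort removes lay under it. The exception was Itgam, the alpha chain of the integrin Mac-1. Sca1 could not be checked, since the single-symbol probe sets include none for its gene Ly6a. The targeted gene itself gave 7.51, 7.38 and 6.93 in mock and 7.02, 7.33 and 7.01 with NAC, against 7.39 to 7.68 in wild-type mock. Which part of Kmt2e was deleted is not given in the sources used here, so this probe set does not check the genotype. Between the Mll5-/- groups it differed by -0.15 with a standard error (SE) of 0.17 and a limma adjusted p of 0.959.

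Across all genes, long-term NAC was followed by a called difference in 1 gene of Mll5-/- LSK cells. That gene was Igkj1, a joining segment of the immunoglobulin kappa light chain, which was higher with NAC. Calls were made at a limma adjusted p under 0.05 (Benjamini-Hochberg) over 22180 genes, so 0.00451% of genes were called, 1 higher and 0 lower. At an unadjusted p under 0.05 there were 1299 genes, or 5.86%, where 1109 would arise by chance with no differences. Of these, 594 (2.68% of all genes) were higher and 705 (3.18%) lower. The median difference over all genes was 0, and 49.6% of genes had a difference above 0. A difference of at least 1 was seen in 46 genes (0.207%) upward and in 21 (0.0947%) downward. The median SE was 0.16. The NAC and mock arrays did not overlap in 1126 genes with NAC above (5.08%) and in 1140 with NAC below (5.14%). Random ordering of 3 arrays against 3 gives shares close to these with no differences. A lack of overlap in a gene named below is therefore a description of its values and no further test.

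**Figure D1:**
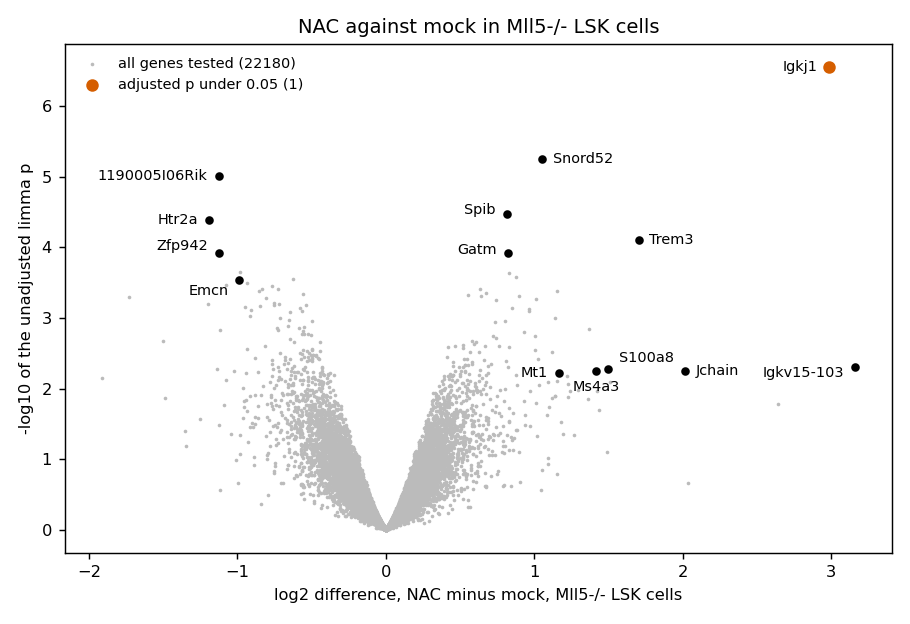
Each point is 1 gene: the log2 difference, NAC minus mock, in Mll5-/- LSK cells on the x axis and -log10 of the unadjusted limma p on the y axis. Igkj1 at 2.98 is the single called gene (orange), and the genes named in black, Snord52 and 1190005I06Rik next by p, did not pass.

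Igkj1 gave 2.47, 2.57 and 2.56 in mock and 5.99, 4.99 and 5.57 with NAC. Every NAC array was above every mock array, and the mock arrays lay under the median gene level. The difference was 2.98 with an SE of 0.31 and an adjusted p of 0.00618 in limma, 7.91-fold on the RMA scale. Because the mock level is dim, the NAC level was also set against the median gene level, which makes it at least 5.08-fold higher. The difference kept its size without any 1 array, from 2.75 to 3.25, but the call was lost without mock array 1, 2 or 3 (adjusted p 0.0681, 0.0587 and 0.0568) and without NAC array 1 (0.0532). The call was also lost when both arrays of low weight were left out (0.0588) and when all probe sets were tested (0.129).

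Further immunoglobulin genes were measured beside it; they were listed after the Igkj1 value had been seen. Of 20 immunoglobulin chain genes, Igkj1 included, 16 had a difference above 0 and 4 below, with a median of 0.25 (0 over all genes). The 1 called was Igkj1. Without NAC array 1 the split was 12 and 8. Over the Mll5-/- arrays, 14 of the 20 lay under the median gene level, as did 10 of the 14 kappa genes. The summed signal of the 20, taken out of the log, overlapped: 555.2 to 1249 in mock and 860.9 to 2856 with NAC. The 14 kappa genes, 11 higher and 3 lower, had a median of 0.31, which came to 0.05 without NAC array 1, with 7 higher and 7 lower. Igkv15-103, a kappa variable segment, gave 4.97, 4.96 and 4.85 in mock and 9.13, 10.11 and 5.02 with NAC. NAC arrays 1 and 2 were far above mock, while NAC array 3 was close to it. The difference was 3.16 (SE 0.93, adjusted p 0.749), and 4.69 with an adjusted p of 0.00407 without NAC array 3. Other variable segments were high in single arrays, and not the same array each time. Igkv9-120 was at 7.22 in NAC array 2 and at 1.60 to 2.33 in the other Mll5-/- arrays. Igkv4-91 was at 7.06 in NAC array 1 and at 2.82 to 3.42 in the other Mll5-/- arrays. A mock array could hold such a value too: Igkv8-30 was at 6.54 in mock array 1 and at 1.92 to 2.90 in the other Mll5-/- arrays.

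Ighm, the constant region of the IgM heavy chain, gave 8.33, 8.04 and 9.30 in mock and 10.22, 10.17 and 9.16 with NAC. Ighm had 7 probe sets, and these values are of the probe set of highest mean. The groups overlapped through mock array 3, and the difference was 1.29 (adjusted p 0.778). Jchain encodes the joining chain of secreted IgM and IgA. It gave 2.36, 2.64 and 2.97 in mock and 6.13, 4.84 and 3.04 with NAC, with no overlap, but NAC array 3 was barely above the highest mock array. Its difference of 2.01 (SE 0.61) did not pass at an adjusted p of 0.749, and it ran from 1.28 without NAC array 1 to 2.83 without NAC array 3. Igkj1, by contrast, was high in NAC array 3 as well.

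Markers of antibody-producing and B cells were set beside these genes. Of 10 measured antibody-secreting cell genes, 8 were higher and 2 lower, with a median of 0.08, and none passed. Their summed signal, taken out of the log, was 213.7 to 262.9 in the mock arrays and 251.5 to 372.6 in the NAC arrays. Apart from Jchain the largest difference in the list was that of Fkbp11, a chaperone of the secretory pathway, at 0.52 (limma adjusted p 0.912). Without NAC array 1 it was 0.22. Sdc1, the plasma cell surface marker, differed by 0.18, and the lowest difference in the list was -0.22. Of 16 B cell genes, 5 were higher and 10 lower with a median of -0.11, and 11 lay under the median gene level. Their summed signal was 194.1 to 233.1 in mock and 167.1 to 249.9 with NAC. RMA gives no value of 0, but Ms4a1, which encodes CD20, was between 1.60 and 1.88 in every Mll5-/- array, close to the floor of the scale. The part of such cells in the Igkj1 difference was not tested. In bulk RNA of a sorted population, fewer or more cells of a type and less or more RNA per cell cannot be told apart.

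**Figure D2:**
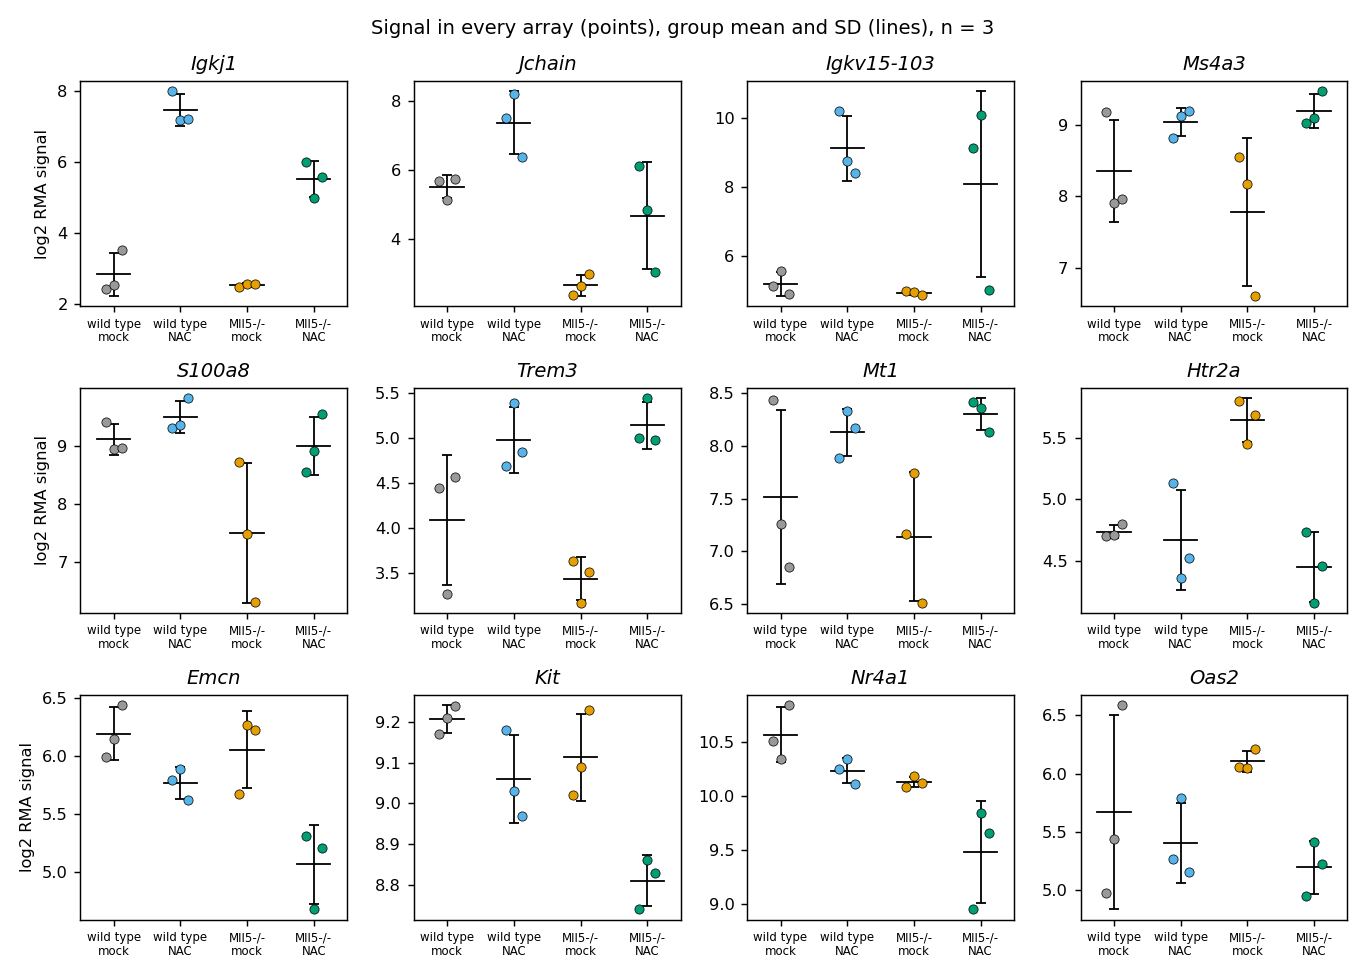
Log2 RMA signal of 12 genes in all 12 arrays (points), with the mean and SD of each group as lines (n = 3). Igkj1 stands at 4.99 to 5.99 in the Mll5-/- NAC arrays against 2.47 to 2.57 in mock, whereas Igkv15-103 and Jchain have 1 NAC array near the mock level.

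Beyond Igkj1 no gene passed, and the genes that follow are those with the smallest p in each direction. They are given as values. Choosing genes by a small p favours groups that do not overlap, so the separation of their arrays adds no support. Snord52, a small nucleolar RNA that guides RNA methylation, came next by p: it gave 3.84, 3.33 and 3.85 in mock and 4.62, 4.72 and 4.84 with NAC. Every NAC array was above the mock arrays, by 1.05 on average (SE 0.14, adjusted p 0.0619). It passed with array weights in the fit (0.0373) and after a second quantile normalization (0.0441). The uncharacterised 1190005I06Rik gave 4.05, 4.0 and 4.40 in mock and 2.97, 2.97 and 3.13 with NAC. All NAC arrays were below mock, by 1.13 on average (SE 0.16, adjusted p 0.071), and it passed without wild-type NAC array 3 (0.0206).

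On the higher side Trem3, a triggering receptor of myeloid cells, had the largest difference of the 12 leading genes: 3.63, 3.17 and 3.51 in mock against 5.0, 5.44 and 4.98 with NAC. The groups did not overlap, and the difference of 1.70 (SE 0.30) had an adjusted p of 0.291, or 0.025 without wild-type mock array 2. Spib, an Ets factor of B cells and plasmacytoid dendritic cells, gave 2.18, 2.23 and 2.46 against 3.23, 3.15 and 2.93 (difference 0.81, adjusted p 0.184). Fcer1a, the alpha chain of the high-affinity IgE receptor, differed by 0.85 and Hpse, the heparan sulfate cleaving enzyme heparanase, by 0.97. Both had adjusted p-values of 0.41. Spib and Fcer1a were dim, under the median gene level in mock.

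The other leading genes on the higher side have varied known roles. Gatm, the first enzyme of creatine synthesis, gave 6.09, 5.82 and 5.77 in mock and 6.55, 6.97 and 6.63 with NAC (difference 0.82, adjusted p 0.336). Ptgr1, a reductase of prostaglandins and lipid aldehydes, gave 5.27, 4.67 and 4.54 against 6.11, 5.70 and 6.12 (difference 1.15). Both were higher in every NAC array. Fancm, a DNA translocase of the Fanconi anaemia pathway, gave 4.74, 4.60 and 4.8 against 5.32, 5.20 and 5.52 (difference 0.63). The RNA helicase of translation initiation Dhx29 differed by 0.88 and the small GTPase Rabl2 by 0.83. Tlcd1, Serpina1c and Dhdh differed by 0.90, 0.74 and 0.67. From Ptgr1 to Dhdh the adjusted p-values were 0.406 to 0.411.

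On the lower side the receptor Htr2a led, a serotonin receptor, with 5.80, 5.45 and 5.68 in mock and 4.73, 4.16 and 4.46 with NAC. The difference was -1.19 (SE 0.20, adjusted p 0.184), with no overlap. Emcn, the sialomucin endomucin of endothelium and blood stem cells, gave 5.67, 6.27 and 6.22 in mock and 5.31, 4.68 and 5.21 with NAC (difference -0.99, SE 0.20, adjusted p 0.406). Its arrays did not overlap either. Phc1, a subunit of Polycomb repressive complex PRC1, gave 5.90, 6.01 and 6.05 against 5.36, 5.51 and 5.21 (difference -0.63). Trp53cor1, the p53-induced long noncoding RNA lincRNA-p21, gave 6.55, 5.58 and 6.03 against 4.67, 5.23 and 5.03 (difference -1.08). Lower values with NAC in all arrays were also seen for the zinc finger genes Zfp942 (-1.12) and Zfp408 (-0.72). The same held for Prrg4 (-0.94), Plxdc2 (-0.85), Tbc1d24 (-0.81), the Dickkopf receptor Kremen1 (-0.77), the glycerate kinase Glyctk (-0.73) and Atxn7l1 (-0.56). The adjusted p-values of these 8 genes and of Phc1 and Trp53cor1 ran from 0.336 to 0.412.

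A single microRNA host locus is shown because its product marks blood cells and its probe set differed by more than most. Mir142 makes miR-142, which is abundant in all blood lineages. Both mature forms are on chromosome 11 of GRCm38.p6 on the plus strand, at chr11:87756867-87756887 and chr11:87756903-87756925. The RefSeq sequences follow with the seed (bases 2 to 8) in capitals, and the seeds of the 5p and 3p forms differ:
mmu-miR-142a-5p: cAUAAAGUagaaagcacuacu
mmu-miR-142a-3p: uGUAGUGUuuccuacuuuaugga
The Mir142 probe set gave 6.28, 7.07 and 6.57 in mock and 5.55, 5.21 and 5.57 with NAC. All NAC arrays were below all mock arrays, by 1.20 on average (SE 0.27), but the adjusted p was 0.412. The array reads the locus and not the mature forms separately, and the gene was singled out after its value had been seen. In wild type the same probe set differed by 0.26.

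Early progenitor programs were read from lists of known genes, described by how their members lay. None of the members of the lists of stem, progenitor and lineage genes passed. Markers of LSK cells were mostly lower with NAC. Of 10 measured LSK markers 8 were lower and 2 higher, with a median difference of -0.365 against 0 over all genes. At an unadjusted p under 0.05, 7 of the 10 were lower, where 3.18% of all genes were. Kit, the receptor of stem cell factor, gave 9.02, 9.09 and 9.23 in mock and 8.74, 8.86 and 8.83 with NAC. Each NAC array lay below each mock array, by 0.30 on average (SE 0.11, adjusted p 0.809). Cd34, the progenitor sialomucin, gave 10.49, 10.48 and 10.52 against 9.87, 10.33 and 10.32 (difference -0.32). Flt3, the receptor of multipotent and lymphoid-primed progenitors, gave 8.35, 8.19 and 8.77 against 7.26, 7.96 and 8.32 (difference -0.59). Its groups overlapped through NAC array 3, and NAC array 1 was the lowest for both Flt3 and Cd34. Without it Cd34 differed by -0.17 and Flt3 by -0.30.

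The transcription factor Meis1, a partner of HOX proteins in stem cells, gave 8.38, 8.57 and 8.60 in mock and 8.24, 7.83 and 7.93 with NAC (difference -0.52, SE 0.15, adjusted p 0.732). Procr, the endothelial protein C receptor of long-term stem cells, gave 5.80, 6.32 and 6.23 against 5.58, 5.99 and 5.28 (difference -0.50). Slamf1, the CD150 antigen, went the other way at 0.14. NAC array 1 carried much of the marker pattern. Averaged over the 10 markers, it stood 0.58 below the mock mean, while NAC arrays 2 and 3 stood 0.19 below and the mock arrays were between -0.05 and 0.08. Without NAC array 1 the median was -0.24, with 7 of 10 lower and 1 at an unadjusted p under 0.05. Leaving out mock array 3 also brought that count to 1, with 9 of 10 lower. The longer list of stem cell genes shares Procr, Slamf1, Hlf, Meis1 and Gata2 with the LSK markers, so the lists are not separate readings. It had 17 of 23 lower and 6 higher, with a median of -0.14, and 5 were lower at an unadjusted p under 0.05. Here the count was 1 without NAC array 1. Tek, the angiopoietin receptor, differed by -0.50 and Sult1a1, a sulfotransferase, by -0.45.

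Genes of granulocyte and monocyte progenitors lay on the other side. Of 20 genes 16 were higher with NAC and 4 lower, with a median of 0.54, and 9 were higher at an unadjusted p under 0.05 where 2.68% of all genes were. Ms4a3, a membrane protein that marks these progenitors, gave 8.55, 8.18 and 6.61 in mock and 9.02, 9.10 and 9.47 with NAC (difference 1.42, SE 0.43, adjusted p 0.749). Fcgr3, a low-affinity IgG receptor, gave 6.28, 5.99 and 5.26 against 6.84, 6.99 and 7.17 (difference 1.16). In both genes the NAC arrays were alike and all above mock, and mock array 3 was the lowest. Igsf6, an immunoglobulin superfamily receptor, gave 8.20, 6.71 and 5.58 against 8.18, 8.14 and 8.47 (difference 1.43), and mock array 1 already had the NAC level. The haptoglobin gene Hp differed by 1.27.

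The granule enzymes Mpo and Elane, which are bright in these cells, did so less clearly. Elane gave 10.32, 9.84 and 8.24 in mock and 9.72, 10.63 and 10.75 with NAC (difference 0.90, adjusted p 0.879). Mpo gave 11.61, 11.16 and 10.66 against 11.34, 11.66 and 11.61 (difference 0.39, adjusted p 0.894). Both overlapped between the groups. Averaged over the list, mock array 1 stood at 0.46, mock array 2 at 0.02 and mock array 3 at -0.48 from the mock mean, against 0.30, 0.59 and 0.71 in the NAC arrays, so the groups overlapped and mock array 3 was apart. Without mock array 3 the median was 0.28 and 2 members had an unadjusted p under 0.05, and without mock array 1 these were 0.69 and 14. Without NAC array 1 there were 18 of 20 higher and again 9 at that p.

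**Figure D3:**
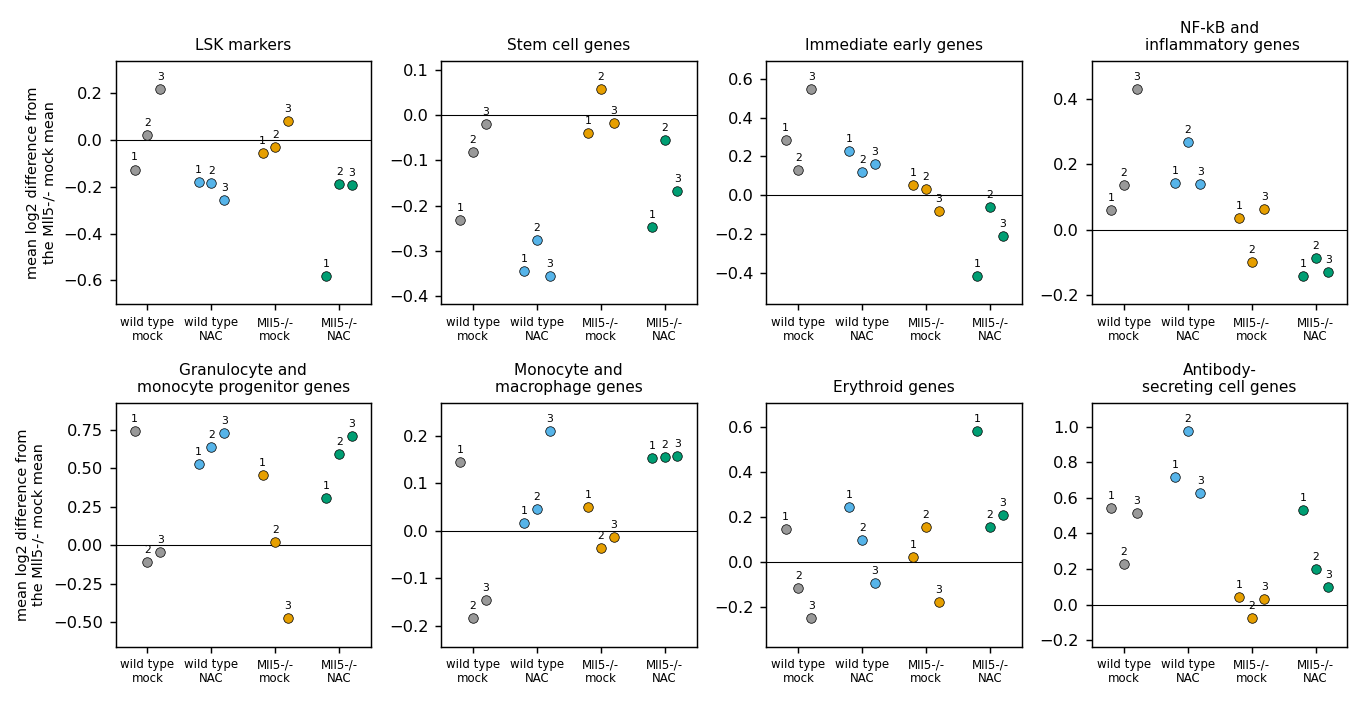
For 8 gene lists, the mean over members of each array's log2 difference from the Mll5-/- mock mean (y axis), by group, with the array number at each point. The 3 Mll5-/- NAC arrays lie below mock for LSK markers (-0.58 to -0.19 against -0.05 to 0.08) and overlap mock for granulocyte and monocyte progenitor genes.

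Markers of mature myeloid cells, which share some of these transcripts, were read beside them. Of 19 mature neutrophil genes 8 were higher and 11 lower, with a median of -0.04, and 10 lay under the median gene level. The calprotectin subunits S100a8 and S100a9 stood out from the rest of the list. S100a8 gave 8.71, 7.47 and 6.31 in mock and 8.55, 8.90 and 9.54 with NAC (difference 1.5, SE 0.45, adjusted p 0.749), and S100a9 differed by 0.97. Ly6g, the antigen of mature neutrophils, was at 1.61 to 2.08 in every Mll5-/- array. The summed neutrophil signal was 664.9 to 1167 in mock and 1042 to 1363 with NAC. Of 19 monocyte and macrophage genes 11 were higher and 8 lower, with a median of 0.10. Without NAC array 1 the median was -0.0033 and the split 9 and 10. Ly6c2, the Ly6C antigen, gave 10.48, 9.84 and 8.80 against 10.03, 10.76 and 10.96 (difference 0.88), with overlap. Adgre1, which encodes F4/80, differed by 0.69 at a dim level, and Spic, a factor of red pulp macrophages, by -0.73. The summed monocyte signal was 1037 to 2016 in mock and 1676 to 2529 with NAC. The part of mature cells in the progenitor pattern was not tested.

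The lists of other lineages follow. The mast cell, basophil and eosinophil list had 13 of 18 higher and a median of 0.155. Hdc, which makes histamine, gave 5.55, 5.65 and 4.49 in mock and 6.21, 5.98 and 6.32 with NAC (difference 0.94, adjusted p 0.829). Of 12 measured erythroid genes 8 were higher with a median of 0.185, led by Car1, a carbonic anhydrase, with 7.15, 7.73 and 6.00 against 9.14, 8.04 and 7.97 (difference 1.42, adjusted p 0.779). Car1 was above mock in every NAC array and highest in NAC array 1, which also held the high value of the blood group gene Rhd (5.47 against 3.35 to 4.07 elsewhere). Among 15 megakaryocyte genes 8 were higher and 6 lower, with a median of 0.07. Pf4, platelet factor 4, differed by 1.12 and Gp9, a platelet glycoprotein, by -0.58.

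Lymphoid priming genes had 10 of 14 lower and a median of -0.15, with Lax1, an adaptor of lymphocytes, at -0.66, and Rag2 at 0.53 and Ighm at 1.29 among the 4 higher. Dendritic cell and MHC class II genes had a median of -0.11 (10 of 17 lower, but 8 without mock array 1 or NAC array 2), with Siglech at 0.58 and Irf8, a factor that monocyte and dendritic cell progenitors need, at 0.53. T and NK cell genes had a median of -0.01 (8 of 18 higher, but 11 without mock array 2 and 10 without NAC array 3). Nkg7, a granule protein also made in myeloid progenitors and counted there too, differed by 0.54. Of 15 stromal and endothelial genes 8 were lower with a median of -0.05, with Emcn and the PDGF receptor Pdgfrb (-0.66) at the low end and Vcam1 (0.56) at the high end.

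**Figure D4:**
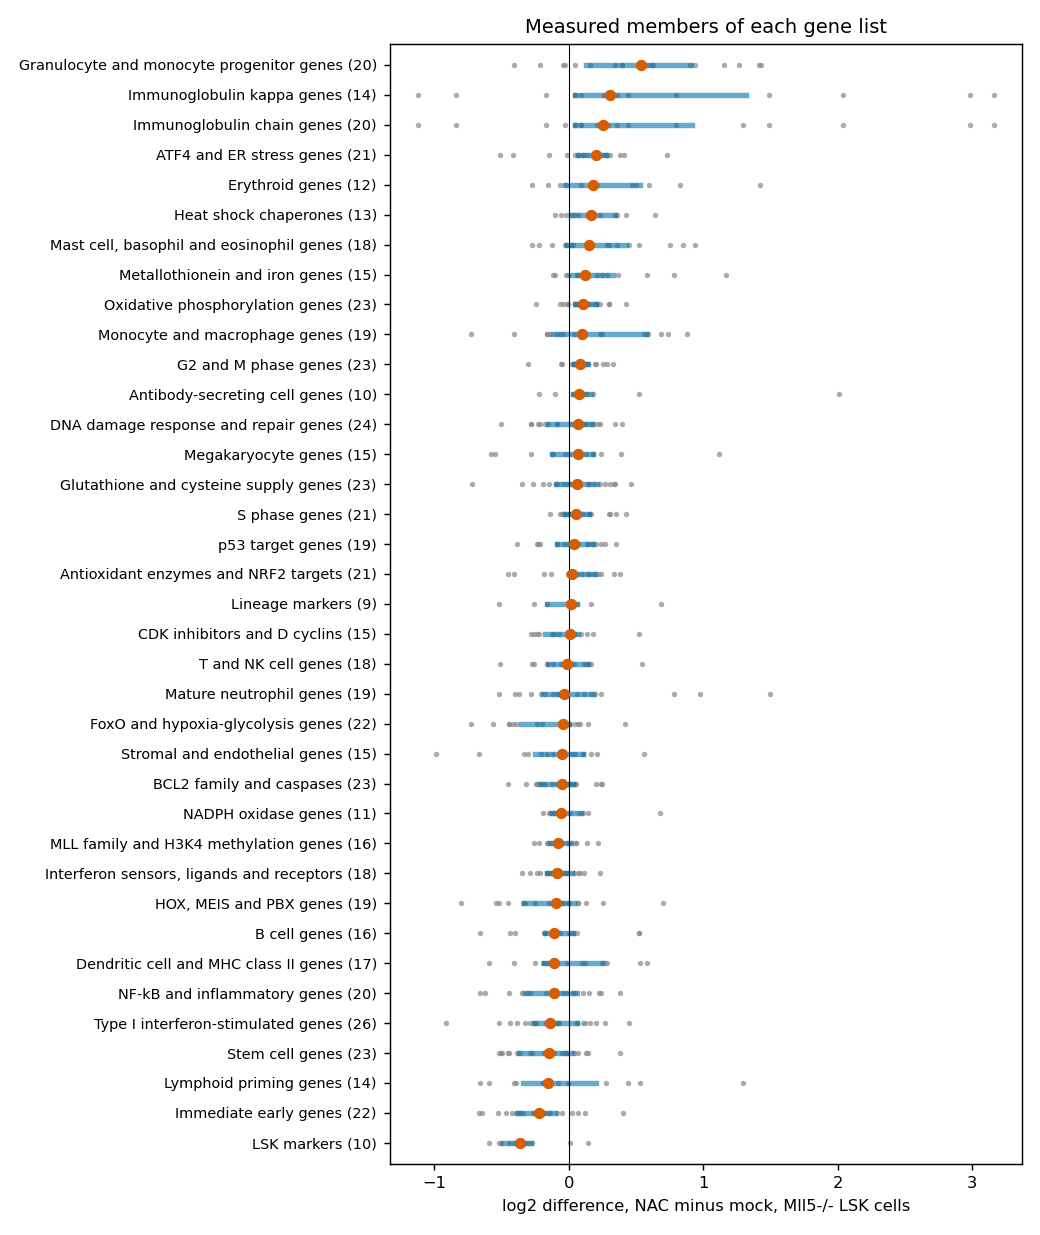
Log2 difference, NAC minus mock, in Mll5-/- LSK cells for the measured members of each list (grey points; number measured in brackets), with the middle of the members from the lower to the upper quartile (blue bar) and the median (orange). Medians run from -0.365 for LSK markers to 0.54 for granulocyte and monocyte progenitor genes, and 0 is the median over all genes.

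Genes that handle oxidants were close to the level of all genes, and none passed. Of 21 measured antioxidant enzymes and NRF2 targets 15 were higher and 5 lower, with a median of 0.03. Srxn1, the sulfiredoxin that repairs oxidised peroxiredoxins, was the one at an unadjusted p under 0.05: it gave 5.05, 4.97 and 5.24 in mock and 4.76, 4.42 and 4.72 with NAC. Its NAC arrays were all below mock, by 0.45 on average (SE 0.13, adjusted p 0.732). Hmox1, heme oxygenase 1, gave 5.09, 4.58 and 5.0 against 3.81, 4.34 and 5.30 (difference -0.41), a spread among NAC arrays wider than the difference, which was -0.07 without NAC array 1. Sesn2, a stress-induced regulator of mTORC1, differed by 0.38 and Keap1, the inhibitor of NRF2, by 0.34.

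For glutathione and cysteine supply, 14 of 23 genes were higher and 9 lower with a median of 0.06, and without NAC array 3 the split was 11 and 12. Chac2, which breaks glutathione down, gave 3.36, 3.30 and 3.04 in mock and 3.71, 3.69 and 3.69 with NAC (difference 0.46, adjusted p 0.753). Ggt5, a gamma-glutamyl transferase, gave 4.67, 4.27 and 4.24 against 3.10, 3.71 and 4.22 (difference -0.72, adjusted p 0.809). Both had no overlap, though the closest arrays of Ggt5 were 4.24 and 4.22, and Ggt5 differed by -0.43 without NAC array 1. Acy1, the aminoacylase that takes the acetyl group off NAC, gave 5.65, 5.50 and 6.01 against 5.24, 5.08 and 5.79 (difference -0.35), with overlap. The glutathione transferase Gstm1 differed by 0.35. The NADPH oxidase genes, which make superoxide, had 5 of 11 higher and 6 lower with a median of -0.06, and without NAC array 1 the split was 7 and 3. Cybb, which encodes the oxidase core of phagocytes, differed by 0.68 with an SE of 0.56.

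Metallothionein and iron genes had 11 of 15 higher and 4 lower, with a median of 0.12. Mt1, a cysteine-rich metal-binding protein, gave 7.16, 7.74 and 6.51 in mock and 8.42, 8.36 and 8.13 with NAC. Each NAC array exceeded each mock array, by 1.17 on average (SE 0.36, adjusted p 0.749). Its paralog Mt2 gave 4.66, 7.94 and 6.99 against 8.05, 6.63 and 7.27, an overlapping set that gave 0.79, or -0.15 without mock array 1. Slc40a1, the iron exporter ferroportin, gave 2.65, 2.53 and 2.59 against 3.45, 3.04 and 3.02 (difference 0.58), near the median gene level.

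FoxO and hypoxia-glycolysis genes had 16 of 22 lower and 6 higher, with a median of -0.04. Txnip, the thioredoxin-binding protein and FoxO target, gave 9.30, 9.26 and 9.28 in mock and 8.69, 9.14 and 8.68 with NAC (difference -0.44, SE 0.14, adjusted p 0.753). The mock arrays of Txnip were nearly identical and all above NAC. The pyruvate dehydrogenase kinase Pdk2 differed by -0.72. At an unadjusted p under 0.05, 4 of the 22 were lower, where 3.18% of all genes were, and 1 without NAC array 1. Oxidative phosphorylation genes had 18 of 23 higher and 5 lower with a median of 0.10. At an unadjusted p under 0.05, 2 of the 23 were higher, where 2.68% of all genes were. Without NAC array 1, NAC array 2 or mock array 3 there were 0. Their summed signal was 12150 to 12920 with NAC and 11470 to 11720 in mock, with no overlap. Such sums did not overlap in other lists either, among them stem cell genes (2435 to 2555 with NAC, 2807 to 3035 in mock). Further cases were G2 and M phase genes (4657 to 4977, 4381 to 4602) and T and NK cell genes (924.7 to 1101, 720.8 to 888.4). Cytochrome c, Cycs, gave 9.73, 9.52 and 9.43 in mock and 9.91, 9.91 and 9.76 with NAC (difference 0.30), and the oxidase subunit Cox7a2 differed by 0.30 as well. Both had an adjusted p of 0.829.

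Among stress programs the ATF4 and ER stress genes had the highest median, 0.20, with 17 of 21 higher and 4 lower. Sdf2l1, an ER chaperone component, gave 7.91, 7.0 and 6.69 in mock and 7.79, 7.73 and 8.27 with NAC (difference 0.73, adjusted p 0.842), and mock array 1 lay within the NAC range. Mthfd2, a mitochondrial folate enzyme, differed by 0.41, while Trib3 and Vldlr differed by -0.51 and -0.41. Without mock array 2 the median was 0.09. The heat shock chaperones had 10 of 13 higher and a median of 0.17, which came to -0.02 without mock array 3, with 6 higher and 7 lower. In Hspa1b, an inducible HSP70, mock array 3 was at 2.55 and the other Mll5-/- arrays at 4.05 to 5.32.

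Immediate early genes, which respond within minutes to growth factors and handling, were mostly lower: 18 of 22, with 4 higher and a median of -0.22. Nr4a1, an orphan nuclear receptor, gave 10.08, 10.18 and 10.12 in mock and 8.95, 9.84 and 9.66 with NAC (difference -0.64, SE 0.20, adjusted p 0.753). All NAC arrays were lower, NAC array 1 by the most. Egr1, a zinc finger factor, gave 8.15, 7.72 and 7.21 against 6.43, 7.54 and 7.12 (difference -0.66), with overlap. Without NAC array 1 the median was -0.15, with 15 lower and 6 higher, Nr4a1 was at -0.38 and Egr1 at -0.36. Egr3 and the phosphatase Dusp2 differed by -0.52 and -0.46.

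The p53 targets were split, 11 higher and 8 lower of 19 with a median of 0.04. Btg2, an antiproliferative p53 target and also an early response gene, gave 8.90, 8.85 and 8.79 in mock and 8.41, 8.42 and 8.55 with NAC (difference -0.39, adjusted p 0.749). The DNA damage response and repair genes had 15 of 24 higher and a median of 0.07, with Ogg1, the glycosylase of oxidised guanine, at -0.50 (SE 0.31) and the kinase Chek1 at 0.39. Without NAC array 1 the split was 11 higher and 13 lower, Ogg1 was at -0.24 and Chek1 at 0.19, and without mock array 2 the split was 12 and 12. Of 23 BCL2 family members and caspases 15 were lower and 8 higher, with a median of -0.05, and without NAC array 1 the split was 11 lower and 12 higher. Bid, a BH3-only death protein, gave 4.77, 5.0 and 4.82 in mock and 4.93, 5.05 and 4.74 with NAC. The groups overlapped, and the difference was 0.04 (SE 0.14, adjusted p 0.984). Casp9, the initiator caspase of the apoptosome, differed by -0.45.

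Type I interferon-stimulated genes had 18 of 26 lower and 8 higher, with a median of -0.14 that came to -0.02 without mock array 3. Oas2, a sensor enzyme of double-stranded RNA, gave 6.06, 6.05 and 6.21 in mock and 4.95, 5.41 and 5.22 with NAC. The groups were well apart, at -0.91 on average (SE 0.32, adjusted p 0.779). Zbp1 and Irf9 differed by -0.52 and -0.44 (Irf9 by -0.09 without NAC array 1), and Mx2 by 0.45. The sensors, ligands and receptors of interferon had 13 of 18 lower with a median of -0.085 and no member with a difference over 0.35 in size. NF-kB and inflammatory genes had 13 of 20 lower with a median of -0.11. The chemokines Ccl3 and Ccl4 led: Ccl4 gave 8.79, 8.63 and 9.10 against 8.24, 7.96 and 8.34 (difference -0.66, adjusted p 0.771), and Ccl3 gave 8.85, 8.88 and 9.19 against 8.10, 8.65 and 8.30 (difference -0.62, adjusted p 0.753). In both chemokines each NAC array was below each mock array.

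Cell cycle genes had medians near that of all genes. Of 23 G2 and M phase genes 20 were above 0 and 3 below, but the median was 0.09 and none had an unadjusted p under 0.05. Without NAC array 3 the split was 13 and 10. Of 21 S phase genes 15 were higher and 6 lower with a median of 0.06. The split was 11 and 10 without mock array 1, 11 and 9 without mock array 2, and 12 and 9 without NAC array 3. Cdc6, a licensing factor of replication origins, gave 6.47, 6.33 and 6.35 in mock and 6.83, 6.86 and 6.73 with NAC (difference 0.42, adjusted p 0.829). Among CDK inhibitors and D cyclins, the median was 0.01 with a split of 8 higher and 7 lower, which turned without any 1 of the 6 Mll5-/- arrays, and Cdkn2c, the inhibitor p18, had the largest difference, with 4.83, 4.96 and 4.90 against 5.39, 5.55 and 5.31 (difference 0.52, adjusted p 0.829).

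HOX, MEIS and PBX genes had 13 of 19 lower and 5 higher with a median of -0.10. Hoxa6 gave 5.33, 5.74 and 5.02 in mock and 4.19, 4.71 and 4.79 with NAC (difference -0.80, adjusted p 0.829), Hoxb3 differed by -0.54 and Hoxb2 by 0.70. Of the 16 MLL family and H3K4 methylation genes 11 were lower and 5 higher with a median of -0.08, and without NAC array 1 the split was 8 and 8. Kmt2a, the founding MLL methyltransferase, differed by -0.26 with an SE of 0.16.

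The NAC effect in Mll5-/- cells was then read beside that in wild-type cells. The differences of the genotypes share no array, but their calls come from 1 fit with a shared estimate of the spread. In wild type, 2 genes were called (0.00902%): Igkj1 higher and Gprc5b lower. Igkj1 gave 2.43, 2.55 and 3.52 in wild-type mock and 7.98, 7.17 and 7.21 with NAC, a difference of 4.62 (adjusted p 3.44e-05). The Mll5-/- difference was smaller by 1.64 (SE 0.43), but this interaction had an adjusted p of 0.999. No gene passed the interaction test in limma, where the lowest adjusted p was 0.243 and 934 genes (4.21%) had an unadjusted p under 0.05. Across the 22180 genes the differences in both genotypes correlated at 0.20 (Pearson) and 0.13 (Spearman). Genes are not independent replicates, and all arrays share 1 platform and 1 normalization. The NAC arrays lay above mock without overlap in both genotypes in 85 genes (0.383%) and below in 113 (0.509%). Part of these genes would be there by random ordering of the arrays alone, and an excess over that was not tested.

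Several lists are given with their medians in both genotypes. Granulocyte and monocyte progenitor genes had a median of 0.54 in Mll5-/- and 0.43 in wild type, and LSK markers -0.365 and -0.275. Stem cell genes had -0.14 and -0.18, and immediate early genes -0.22 and -0.15. The immunoglobulin kappa genes had 0.31 and 1.91, and Jchain differed by 2.01 and 1.85. For G2 and M phase genes the wild-type median was 0.22, against 0.09. Other lists had medians on opposite sides of 0 in the genotypes. Heat shock chaperones had 0.17 in Mll5-/- and -0.05 in wild type, and p53 targets 0.04 and -0.11. NF-kB and inflammatory genes had -0.11 and 0.045, lymphoid priming genes -0.15 and 0.02, and NADPH oxidase genes -0.06 and 0.08. In none of these lists was the difference between genotypes itself tested as a list. Averaged over the granulocyte and monocyte progenitor list, wild-type mock array 1 stood at 0.74 from the Mll5-/- mock mean. That was above each wild-type NAC array (0.53 to 0.73), so the wild-type groups overlapped.

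Of the 10 genes named for the smallest interaction p, all but Zfp972 had differences of opposite sign in the genotypes, and none passed. Snord52 was higher with NAC by 1.05 in Mll5-/- and differed by -0.34 in wild type, the interaction of 1.40 having the adjusted p of 0.243 given above. Blnk, an adaptor of the B cell receptor, gave 4.31, 4.30 and 4.52 in Mll5-/- mock and 3.51, 3.82 and 3.82 with NAC. In wild type it gave 4.22, 4.42 and 4.8 in mock and 5.41, 4.74 and 5.29 with NAC. The interaction was -1.33 (adjusted p 0.744). Spib had an interaction of 0.95, Ndrg2 of 1.40 and Lce3d of 1.22, while Sipa1l2, Necap2, Tssk2 and Otud7b had -0.85, -0.95, -0.90 and -0.94. Cd59a, an inhibitor of complement lysis, and Zfp972 had the widest gaps, 1.83 and 1.78, which came from the wild-type arrays: Cd59a differed by -1.49 there and by 0.35 in Mll5-/-. Bid differed by 0.58 in wild type and 0.04 in Mll5-/-, an interaction of -0.54 with an adjusted p of 0.999. For Htr2a the Mll5-/- NAC arrays (4.16 to 4.73) were near the wild-type mock arrays (4.70 to 4.8), and the interaction was -1.13 (adjusted p 0.885). Htr2a was named for its difference in these same Mll5-/- arrays, and a return to the wild-type level was not tested.

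**Figure D5:**
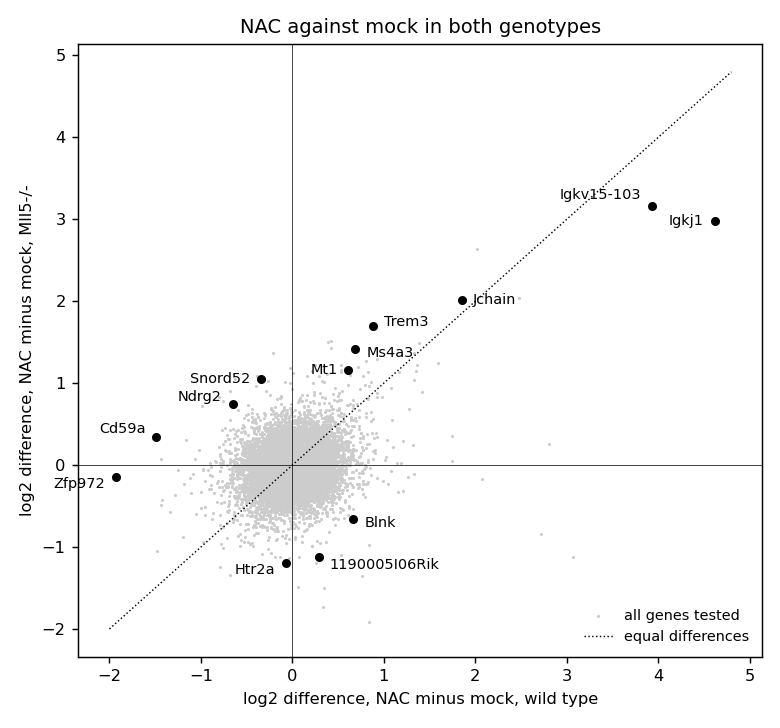
Log2 difference, NAC minus mock, of each gene in wild type (x axis) and in Mll5-/- (y axis), with the dotted line marking equal differences. Igkj1, Igkv15-103 and Jchain are high in both genotypes (2.98, 3.16 and 2.01 in Mll5-/-), while Blnk and 1190005I06Rik are below 0 in Mll5-/- and above 0 in wild type.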

How the data were processed

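Total RNA of LSK cells was hybridised to 12 arrays, 3 for each of 4 groups. The deposited log2 signals came from RMA in Affymetrix Power Tools, going by the submitters' processing notes. No version or log base is given in the sources read, and base 2 was inferred from the range of 0.74 to 13.23. Of 41345 probe sets, 23521 had 1 gene symbol, 1814 several and 16010 none; 23328 matched RefSeq (GRCm38.p6). Of 1082 genes with several probe sets, the one of highest mean was kept. The limma fit (version 3.58.1, R 4.3.3; lmFit, eBayes) used all 12 arrays, 1 mean for each group, no filter and no block. Benjamini-Hochberg adjustment ran over 22180 genes at 0.05. Having 3 arrays a group limits the precision. The code was tested on simulated data.

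The members and lists were chosen with earlier results of these data known. Named were the 12 genes of smallest p per direction (segments, small RNAs and clone names left out), up to 4 members of largest difference per list, Kmt2e, Bid and 7 marker genes, and 5 genes per direction for the interaction. Igkj1 as the called gene, Igkv and Ighm genes, Jchain, Snord52, 1190005I06Rik and Mir142, and other list members given to complete a description, were chosen after their values were seen. Alternatives changed the filter, samples, weights, scaling, eBayes, probe sets, block and threshold.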

Additional observations from a re-analysis of the deposited data

How the results depend on the processing

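The count of 1 called gene came to 2 with array weights and after a second quantile normalization (Snord52 joined Igkj1), to 3 at an adjusted p under 0.10 (1190005I06Rik too), and to 0 with all probe sets (2075 at an unadjusted p under 0.05) and without both arrays of low weight (1112 at that p), an alternative chosen after seeing the data. Leaving out each array in turn gave 0 to 2, with 0 without mock array 1, 2 or 3 or NAC array 1 of Mll5-/- (1032 to 1419 at an unadjusted p under 0.05). It gave 2 without wild-type mock array 2 (Trem3 joined), Mll5-/- NAC array 3 (Igkv15-103) or wild-type NAC array 3 (1190005I06Rik). The interaction count of 0 (934 at an unadjusted p under 0.05) ran from 0 to 2 over left-out arrays, with 2 without wild-type NAC array 3 (Igkv6-23 and 1190005I06Rik). It could not be fitted on the 6 Mll5-/- arrays alone. The other alternatives gave 1 and 0. The cause was not tested.

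The replicate numbers did not pair the Mll5-/- arrays: same-numbered arrays had deviations that correlated at -0.016, 0.002 and -0.035. Between the genotypes, same-numbered arrays correlated at 0.052, 0.053 and 0.03 with NAC and at 0.052, 0.005 and 0.016 in mock. With the replicate block, 1 gene was called, Igkj1, with 1326 at an unadjusted p under 0.05, and 0 for the interaction.

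Some differences changed sign without 1 Mll5-/- array, none of them past the threshold, and the cause was not tested. Over the left-out arrays Bid ran from -0.028 to 0.13, Mt2 from -0.15 to 1.49, Thbs1 from -1.32 to 0.14, Hspa1b from -0.33 to 1.05, Slamf1 from -0.17 to 0.43 and Zfp972 from -0.33 to 0.12. Kmt2d ran from -0.43 to 0.095, Rac2 from -0.26 to 0.022, Rhd from -0.037 to 0.93 and Setd1b from -0.285 to 0.025, each with its turned value without NAC array 1 and again without both arrays of low weight. List medians moved beyond their spread in 33 of their alternatives and stayed within it in 337.

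With 3 arrays a group and a median SE of 0.16, small differences were not detectable after adjustment.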
